A study of Mus musculus with 4 samples.

Results

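The cells described here were interleukin 17 (IL-17) type gamma-delta T cells of uninjured and injured mouse tibial muscle, chosen by their own unique molecular identifier counts (UMIs, each standing for 1 captured transcript) in a single-cell RNA sequencing series. A cell was a member if it held at least 1 UMI of Trdc, the constant segment of the delta chain of the T cell receptor, at least 1 UMI of the CD3 genes Cd3e, Cd3d and Cd3g summed, and at least 1 UMI of Cd163l1, Il17a, Blk or Tcrg-C1. It also had to hold 0 UMIs of Cd4, Cd8a and Cd79a and at most 10% of its UMIs on mitochondrial genes. This rule found 184 members among 59824 cells, 0.308% of the series. Because the rule was applied to measured values, the levels of Trdc, Cd163l1, Il17a, Blk, Tcrg-C1 and the CD3 genes among members are given below only as a description.

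Gamma-delta T cells carry a receptor made of a gamma and a delta chain in place of the alpha and beta chains of most T cells. The IL-17 type among them leaves the thymus already able to make IL-17A and responds to IL-1 and IL-23 without needing its receptor to meet antigen. Such cells live in barrier and other tissues, and the IL-17A they secrete acts on stromal and epithelial cells, which answer with chemokines that draw neutrophils.

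The 4 libraries came from Nse-Bmp4 C57BL/6 mice aged 6 to 8 weeks, in which the promoter of neuron-specific enolase drives a Bmp4 transgene and in which injury leads to heterotopic bone in muscle. All 4 groups carried the transgene. One library held uninjured muscle (Uninjured), and the other 3 held muscle taken 1, 3 or 7 days after injection of cardiotoxin, a snake venom toxin that kills muscle fibres (days post injury, dpi). Each pooled 3 tibial muscles digested with collagenase. Each time point was therefore a single library, so that differences between time points had no replicate check and no test, and the intervals given cover counting error only. The libraries held 112317902, 91146335, 116346301 and 129007669 UMIs in the order Uninjured, 1, 3 and 7 dpi, the order used for all sets of 4 values below. A barcode could occur in a pair of libraries by chance, and between 30 and 95 deposited barcodes were shared by each pair. None of them was that of a member in both libraries of a pair.

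A pair of neighbouring genes carries the name of the cell type. Il17a lies at chr1:20730905-20734496 on the plus strand and Il17f at chr1:20777146-20790617 on the minus strand (mm10), so that their gene bodies are 42.6 kb apart and are transcribed towards each other. The 250 bases before each start site, from the RefSeq promoter table for GRCm38.p6, are shown because the transcription factor that Rora encodes, measured below, binds sites built on the hexamer AGGTCA, which is in capitals on either strand (TGACCT is the same hexamer read on the other strand).
Il17a: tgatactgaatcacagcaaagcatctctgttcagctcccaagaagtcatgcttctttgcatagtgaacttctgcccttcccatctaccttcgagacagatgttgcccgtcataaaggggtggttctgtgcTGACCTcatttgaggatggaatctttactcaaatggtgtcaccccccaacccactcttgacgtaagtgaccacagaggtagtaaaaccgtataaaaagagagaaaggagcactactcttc
Il17f: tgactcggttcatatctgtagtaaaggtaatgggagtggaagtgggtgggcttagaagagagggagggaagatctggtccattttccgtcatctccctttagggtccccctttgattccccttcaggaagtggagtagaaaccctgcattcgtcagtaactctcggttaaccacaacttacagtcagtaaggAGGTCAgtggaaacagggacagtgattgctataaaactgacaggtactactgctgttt
The Il17a window is chr1:20730655-20730904 on the plus strand, with the hexamer 114 bases before the start, and the Il17f window is chr1:20784271-20784520 on the minus strand, with the hexamer 52 bases before the start. The RefSeq start of Il17f lies 6.35 kb inside the gene body given above, which begins at an earlier start in the other annotation, while both give Il17a the same start. Of 27025 genes with a window of this length in the table, 4260 (15.8%) held the hexamer on either strand, so that a match describes letters and not a site.

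The members numbered 9, 32, 73 and 70. They made up 1.71% of the 527 CD3-positive cells of Uninjured muscle (exact Clopper-Pearson 95% interval 0.784 to 3.22%). The shares were 3.39% of 943 CD3-positive cells at 1 dpi (2.33 to 4.76%), 4.95% of 1474 at 3 dpi (3.90 to 6.19%) and 3.36% of 2082 at 7 dpi (2.63 to 4.23%). With this denominator the 3 dpi share was the highest and its interval did not reach that of Uninjured muscle. The intervals of 1 and 7 dpi overlapped each other almost wholly. As shares of all cells the values were 0.0761, 0.295, 0.517 and 0.304%. Members held a median of 3619, 5008, 2679 and 2920 UMIs per cell, so that a gene of low level had different chances of being seen in the libraries. With every cell thinned to 1000 UMIs before the rule was applied, the shares of CD3-positive cells were 1.73, 1.94, 4.08 and 2.42%.

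**Figure D1:**
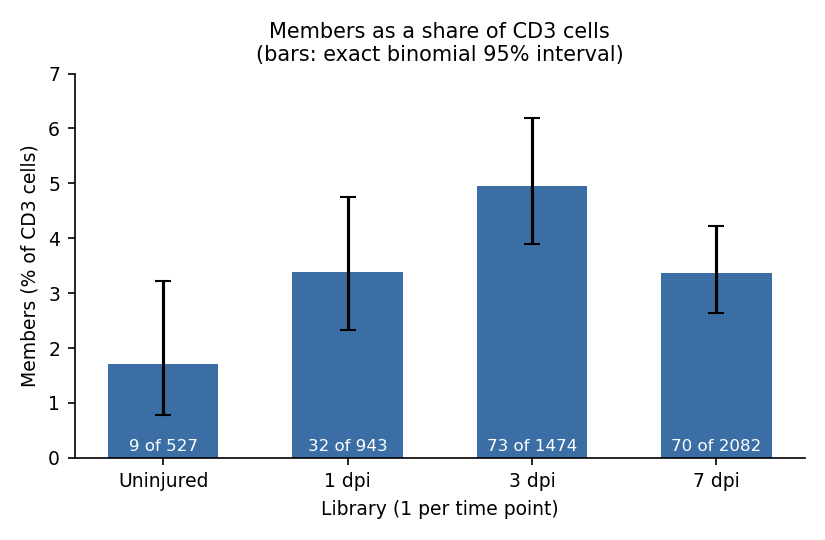
Members as a percentage of CD3-positive cells in each library (bars, with exact binomial 95% intervals, and the number of members and of CD3-positive cells). The share was 1.71% in Uninjured muscle, 3.39% at 1 dpi, 4.95% at 3 dpi and 3.36% at 7 dpi.

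The 4 genes of the rule did not contribute equally. Cd163l1, which encodes the scavenger receptor SCART1 found on gamma-delta T cells, had UMIs in 133 members, Tcrg-C1 in 140, the Src family kinase gene Blk in 114 and Il17a in 102. All 4 were seen in 59 members, 3 of them in 46, 2 of them in 36 and 1 of them in 43. The members just inside the rule included 29 with exactly 1 UMI over these genes and 44 with exactly 1 UMI of Trdc. The 22 members that entered through Tcrg-C1 alone had no UMI of Il23r, and 7 of them (31.8%) held the natural killer receptor gene Klrb1c and 7 Cd27. Tcrg-C1 shares sequence with the other gamma constant segments, so that this route is uncertain. Just outside the rule stood 157 cells with Trdc and CD3 UMIs and none of the 4 genes, called other Trdc T cells below.

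A check of the label against markers of other cells set part of the 7 dpi members apart. Of the 70 members at 7 dpi, 37 held 2.90 to 8.81% (median 5.82%) of their UMIs on lists of mesenchymal and cartilage genes. The other 33 held 0.0479 to 0.542% (median 0.197%), and no member lay between. At 1 dpi 3 of 32 members and at 3 dpi 7 of 73 were above 1%, and in Uninjured muscle 0 of 9. Ptprc, the gene of the pan-leukocyte protein CD45, had a UMI in 8 of the 37 (21.6%) and in 20 of the 33 (60.6%). The 37 also held fewer UMIs of the genes that define the members, with medians of 1 against 5 for Trdc, 2 against 9 for the CD3 genes and 3 against 8 for the 4 genes of the rule. Col2a1, the collagen gene of cartilage, had 1209 UMIs in the 37 and 15 in the 33. The same was seen in other lymphocytes of that library, where 47.3% of NK cells, 21.3% of alpha-beta T cells, 52.5% of other Trdc T cells and 18.0% of B cells were above 1%. In mesenchymal cells of 7 dpi without Ptprc, 0.876% had a UMI of Trdc and 0.467% one of Il17a. Whether these members were cells with stromal transcripts in their droplets, pairs of cells or stromal cells with T cell transcripts was not tested. Values are therefore also given for the 137 members with at most 1% of such UMIs (9, 29, 66 and 33), a limit set after the data were seen.

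**Figure D2:**
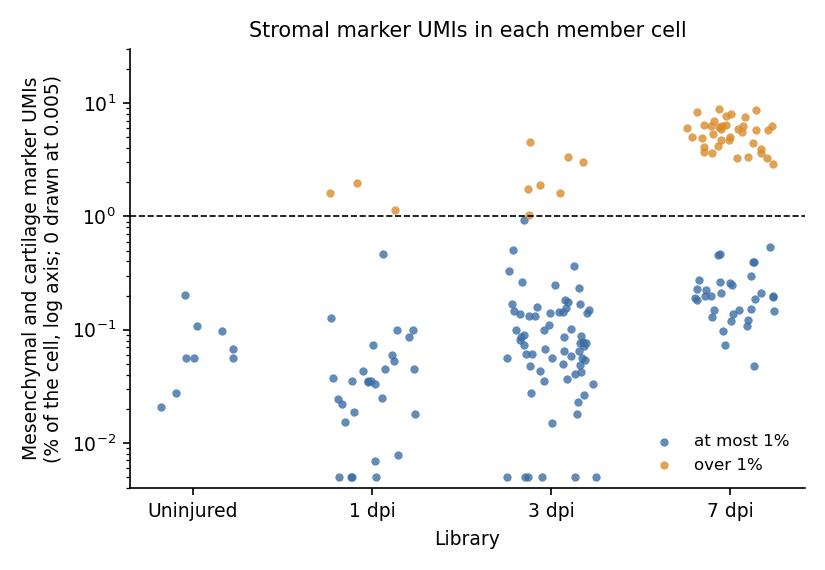
Percentage of each member's UMIs on the mesenchymal and cartilage marker lists, by library (log axis, 1 point a member, members with 0 drawn at the bottom, dashed line at 1%). The 7 dpi members form a lower set of 33 up to 0.542% and an upper set of 37 from 2.90%.

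Without the members above 1%, and with the same limit on CD3-positive cells, the shares of CD3-positive cells were 2.09, 3.39, 5.24 and 4.02%, and among CD3-positive cells with Ptprc they were 1.59, 3.39, 4.25 and 3.09%, so that 3 dpi was the highest in each. The order differed for another denominator when cells above 1% were kept. Of members, NK cells, alpha-beta T cells and other Trdc T cells together the members then made up 2.62, 3.50, 5.47 and 6.33%. The 7 dpi share was the highest, and its interval (4.97 to 7.94%) overlapped that of 3 dpi (4.31 to 6.83%). With this denominator the interval of 3 dpi also overlapped that of Uninjured muscle (1.20 to 4.91%). The same held among CD3-positive cells with Ptprc (3.18 to 5.55% at 3 dpi and 0.640 to 3.24% in Uninjured muscle). As shares of all cells the intervals of 3 dpi (0.406 to 0.650%) and Uninjured muscle (0.0348 to 0.144%) did not overlap. Under the 1% limit the 3 dpi counts of these classes were 66, 646, 410 and 52 cells. At 7 dpi they were 33, 381, 199 and 28, a lower share of members than at 3 dpi. Markers of other cell types were counted over all members. The mesenchymal list reached 668, 3911, 7975 and 30991 UMIs per 1000000 UMIs of the members of that library (CPM), and 668, 426, 1099 and 1612 CPM in members of at most 1%. The cartilage list reached 0, 0, 26.4 and 8052 CPM, and 353 CPM at 7 dpi in members of at most 1%. The myeloid list had 14, 175, 240 and 273 UMIs, of which 13, 108, 215 and 239 were of Cst3, a gene also active in stroma. The B cell list had 3, 57, 91 and 80 UMIs, with Cd79a at 0 by the rule and Ebf1 leading at 7 dpi (58). The NK list had 0, 11, 28 and 11 UMIs. The alpha-beta T cell list had 39, 225, 278 and 143 UMIs, led by Trbc1 and Trbc2, with Foxp3 at 0. The list of type 2 innate lymphoid cells had 18, 63, 89 and 26 UMIs, of which 17, 43, 55 and 7 were of Areg, with Il5 and Il13 at 0. The list for gamma-delta T cells of the epidermis had 3, 87, 116 and 55 UMIs, with Tcrg-V5, the gamma segment that defines those cells, at 0. Endothelial, muscle, erythroid and mast cell lists stayed between 0 and 19 UMIs in each library, and 163 keratinocyte UMIs at 3 dpi came from 2 members. The part of these transcripts in the results below was not tested.

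The tests below compared members with 3 other lymphocyte classes on UMIs summed per library, so that each p measures the spread between 4 libraries that are also 4 time points, with the library as a block. Sets of 3 values below are in the order NK cells, alpha-beta T cells and other Trdc T cells. NK cells (2043) held Ncr1 or Klrb1c and no CD3 gene. Alpha-beta T cells (1313) held a CD3 gene and either Cd4 or Cd8a but no Trdc, and other Trdc T cells were defined above. The genes that define the classes were not tested. Against NK cells 4.10% of 6189 genes tested were higher in members and 2.42% lower at an adjusted p under 0.05. Against alpha-beta T cells 2.11% of 7049 genes were higher and 1.65% lower. Against other Trdc T cells 1.34% of 3129 genes were higher and 1.31% lower. The lists below are read against these shares, and none of them was chosen without knowledge of earlier results from these data.

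The delta variable segment seen in the most members was Trdv4. This segment, at chr14:54074905-54075515 (plus strand), lies in the same locus as Trdc and had 23, 44, 47 and 53 UMIs in members, in 6, 14, 30 and 28 cells. That is 42.4% of members (48.9% of those at most 1% stromal), against 3.38% of NK cells, 0.0762% of alpha-beta T cells and 3.82% of other Trdc T cells. B cells, which should lack the gene, had it in 0.0971%, where the median cell held 2763 UMIs and the median member 3106. After thinning to 1000 UMIs the shares were 20.3% in members, 0.876% in NK cells, 0.649% in other Trdc T cells and 0.0121% in B cells. Its levels in members were 668, 210, 177 and 166 CPM and in other Trdc T cells 0, 7.79, 0 and 22.9 CPM, and the ranges did not overlap. Trdv4 was 4.53 ± 0.61 higher on the log2 scale (± SE) in members than in other Trdc T cells (edgeR adjusted p = 0.00511) and 4.93 ± 0.27 higher than in NK cells (edgeR adjusted p = 1.76e-07). Alpha-beta T cells, which by their rule held no UMI of Trdc, had 1 UMI of Trdv4 against 167 in members, a CPM ratio of 1260 (224 to 50239). Because Trdc, of the same chain, was used to choose both classes, this ratio is given only as a description. Members held 167 of the 490 Trdv4 UMIs of the kept cells (34.1%). In Uninjured muscle they held 23 of 173 (13.3%), while the mesenchymal cells of that library held 127.

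Of the gamma variable segments, Tcrg-V6, which the IL-17 type of several tissues uses, had 15 UMIs in 15 members (1, 3, 5 and 6), 8.15%, against 0 of 2043 NK cells, which allows a share of up to 0.147%, 0 of 1313 alpha-beta T cells (up to 0.228%) and 1 of 157 other Trdc T cells. Of its 19 UMIs in the series, 15 (78.9%) were in members. Trgv2 had 28 UMIs in 22 members, Tcrg-V1 5 UMIs, Tcrg-V4, Tcrg-V7 and Trdv5 1 UMI each, and Tcrg-V5, Tcrg-V3 and Trdv1 0. Of the 78 members with Trdv4, 10 held Tcrg-V6 and 69 (88.5%) Cd163l1, and of the 106 without, 5 held Tcrg-V6 and 64 (60.4%) Cd163l1. Gamma variable segments were seen in few cells each, so that the pairing of chains in single cells could not be read at this depth.

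Transcripts of the alpha-beta receptor genes were not absent from the members. Trac, the alpha constant segment, which lies in the same locus as Trdc, had 0, 22, 13 and 10 UMIs in 23 members (12.5%), and was lower than in alpha-beta T cells by a log2 fold change of -2.91 ± 0.33 (edgeR adjusted p = 7.5e-05). Trbc2 had UMIs in 112 members (60.9%), at 668, 372, 408 and 229 CPM against 865, 888, 768 and 769 CPM in alpha-beta T cells. It was lower than in alpha-beta T cells (-1.27 ± 0.21, edgeR adjusted p = 0.00196) and higher than in NK cells (1.89 ± 0.27, edgeR adjusted p = 0.000407). Trbc1 passed none of the 3 tests. A member with Trac or Trbc transcripts was not removed by the rule. With members required to hold none, the shares of CD3-positive cells were 0.190, 0.318, 1.15 and 1.34%, highest at 7 dpi.

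Several transcription factors that set the IL-17 type were higher in members than in NK and alpha-beta T cells. Of 14 genes on this list 10, 12 and 7 had enough UMIs to be tested in the 3 comparisons. Of these, 5 of 10 were higher than in NK cells (median log2 fold change 0.97, against -0.04 over all genes tested) and 4 of 12 higher than in alpha-beta T cells (0.36 against -0.07), and none was lower. Against other Trdc T cells 2 of 7 were higher and 1 lower (0.14 against 0.00).

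Rora, which encodes the nuclear receptor RORalpha, had UMIs in 133 members (72.3%). Its levels were 261, 602, 827 and 204 CPM in members and 19.5, 77.9, 64.7 and 73.2 CPM in other Trdc T cells, and all members' libraries stood above all of the others. The differences were 2.75 ± 0.42 against other Trdc T cells (edgeR adjusted p = 0.00842), 2.93 ± 0.30 against NK cells (2.67e-05) and 1.14 ± 0.23 against alpha-beta T cells (0.00768). Maf, which encodes a factor needed for IL-17 type gamma-delta T cells, had 406, 454, 472 and 207 CPM and was higher against NK cells (2.21 ± 0.26, edgeR adjusted p = 9.31e-05), alpha-beta T cells (1.04 ± 0.24, 0.0243) and other Trdc T cells (2.20 ± 0.46, 0.0305). Zbtb16, the gene of PLZF, a factor of innate-like T cells, was higher than in NK cells (3.17 ± 0.29, edgeR adjusted p = 9.7e-06) and alpha-beta T cells (3.68 ± 0.40, 6.12e-05). With 1 library left out, the call against alpha-beta T cells was lost without 1 dpi or 3 dpi for Rora (edgeR adjusted p = 0.157 and 0.143) and for Maf (0.0790 and 0.163), and that of Maf against other Trdc T cells without Uninjured muscle or 3 dpi (0.138 and 0.110). Sox13, a factor of gamma-delta T cell development, had 38 UMIs in 16.8% of members, 1.91% of other Trdc T cells and 0.534% of B cells. Sox4 went the other way against other Trdc T cells (-2.98 ± 0.41, edgeR adjusted p = 0.00511), with 0, 3, 5 and 26 UMIs in members, and 0 at 7 dpi in those at most 1%. In other Trdc T cells it had 5, 43, 42 and 85 UMIs, of which 5, 43, 3 and 3 were left under the same limit, where too few remained for the test, and the call was lost with no library block (edgeR adjusted p = 0.110).

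**Figure D3:**
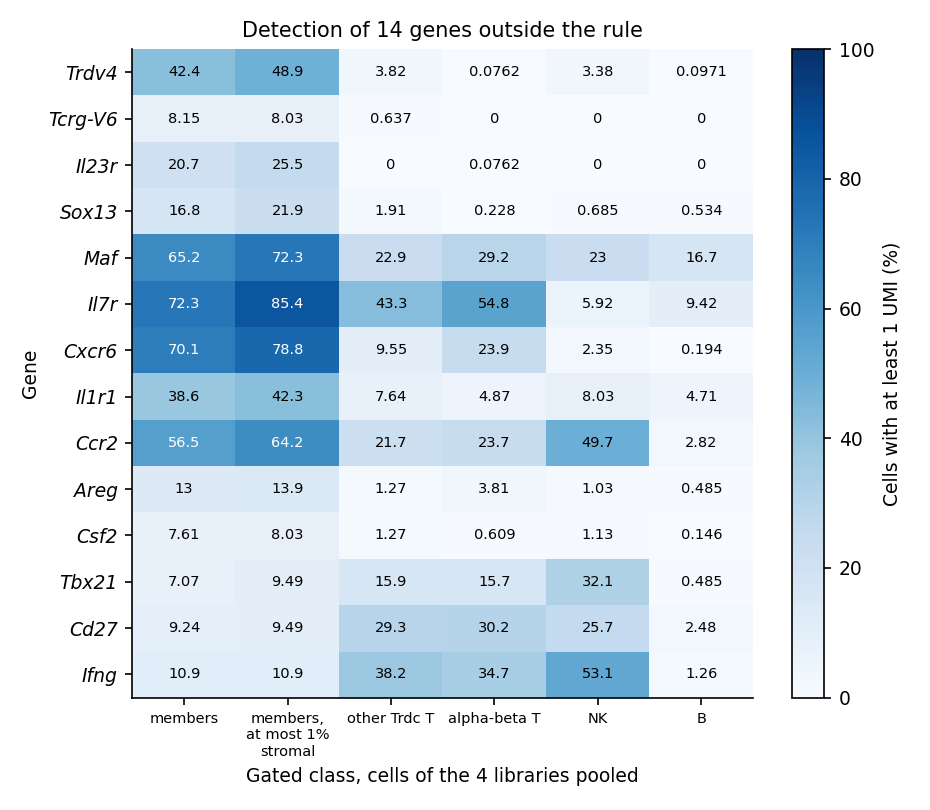
Share of cells with at least 1 UMI of 14 genes (rows) in members, members with at most 1% stromal UMIs, other Trdc T cells, alpha-beta T cells, NK cells and B cells (columns), in percent. Trdv4 was seen in 42.4% of members and 3.82% of other Trdc T cells, and Cxcr6 in 70.1% and 9.55%, while Ifng went the other way with 10.9% and 38.2%.

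Receptors of the type, among them those for IL-23, IL-1 and IL-7, were higher in members for more genes than not against NK and alpha-beta T cells. Of 22 genes on the list, 10 of the 15 tested were higher than in NK cells and 2 lower (median 2.34), 12 of 19 higher than in alpha-beta T cells and 2 lower (1.16), and 5 of 14 higher than in other Trdc T cells and none lower (1.55). With cells above 1% stromal UMIs left out of both classes, 9 of 14 were higher than in other Trdc T cells and 2 lower, where 7.35% of all 1659 genes tested were higher and 6.75% lower. Il23r, the IL-23 receptor gene at chr6:67422932-67491855, had 4, 16, 22 and 6 UMIs in 4, 10, 19 and 5 members (20.7%). It had none in 2043 NK cells or 157 other Trdc T cells (up to 0.147 and 1.91%), and 1 UMI in alpha-beta T cells, a ratio of 363 (62.2 to 14650). Members held 48 of its 97 UMIs in the series (49.5%).

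Il1r1, the receptor for IL-1, had 203, 124, 166 and 116 CPM in members. It was higher than in NK cells (2.34 ± 0.32, edgeR adjusted p = 0.000321) and alpha-beta T cells (2.70 ± 0.31, 7.84e-05). Against other Trdc T cells, at 0, 0, 107 and 41.2 CPM, the difference was 1.60 ± 0.57 (edgeR adjusted p = 0.256). It passed the test with cells above 1% stromal UMIs left out of both classes (edgeR adjusted p = 1.82e-06). Il7r, the receptor for the survival cytokine IL-7, had 552, 1012, 1095 and 238 CPM and was higher against NK cells (4.76 ± 0.29, edgeR adjusted p = 2.93e-07), other Trdc T cells (1.5 ± 0.30, 0.0257) and alpha-beta T cells (0.84 ± 0.21, 0.0393). Il2ra, the high affinity IL-2 receptor chain, was higher in all 3 comparisons (3.69, 2.25 and 2.71), and so were Ltb4r1, the leukotriene B4 receptor (3.96, 3.09 and 3.98), and Ramp1, a partner of the receptor for the neuropeptide CGRP (2.84, 2.34 and 2.28). With 3 libraries left the smaller differences of Il7r kept their direction but not their calls. Against alpha-beta T cells they were 0.77, 0.63 and 0.89 without 1, 3 or 7 dpi (edgeR adjusted p = 0.384, 0.445 and 0.115), and against other Trdc T cells 1.65, 1.35 and 1.23 without Uninjured muscle, 3 or 7 dpi (0.0577, 0.114 and 0.126). On all 4 libraries the call of Il7r against alpha-beta T cells was also lost with DESeq2 (0.87, adjusted p = 0.0573). In edgeR it was lost without Tcrg-C1 in the rule (0.93, adjusted p = 0.0577), with no filter on low counts (0.66, 0.137) and with no library block (0.90, 0.680). Its call against other Trdc T cells was lost with no library block (1.37, edgeR adjusted p = 0.687). The calls of Il2ra were lost without 1 dpi against alpha-beta T cells (0.0576) and without 7 dpi against other Trdc T cells (edgeR adjusted p = 0.0515). Ltb4r1 stood at 145, 95.5, 106 and 84.6 CPM in members and at 0, 15.6, 2.81 and 4.58 CPM in other Trdc T cells.

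Icos, a costimulatory receptor, was higher than in NK cells (4.65 ± 0.28, edgeR adjusted p = 2.93e-07) and other Trdc T cells (2.22 ± 0.43, 0.0242), and its difference from alpha-beta T cells was 0.76 ± 0.30 (0.249). Receptors of IL-18 differed in direction by chain, with Il18r1 higher than in NK cells (0.92 ± 0.21, edgeR adjusted p = 0.0155) and Il18rap lower (-1.73 ± 0.31, 0.00274). Il2rb, the IL-2 and IL-15 receptor chain, was also lower than in NK cells (-1.26 ± 0.22, edgeR adjusted p = 0.0022). Against alpha-beta T cells the lower members of the list were Il6ra (-2.89 ± 0.52, edgeR adjusted p = 0.00341) and Il21r (-1.70, 0.0241). These calls did not hold in every set of 3 libraries. Icos against other Trdc T cells was lost without Uninjured muscle (edgeR adjusted p = 0.110) or 3 dpi (0.1), Il18r1 without 1 dpi (0.126) or 3 dpi (0.285), Il6ra without 1 dpi (0.0545) and Il21r without 1 dpi (0.160) or 3 dpi (0.234). Il21r was also lost with DESeq2 on all 4 libraries (-1.70, adjusted p = 0.0640).

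Il17a itself, a gene of the rule, had 26, 123, 324 and 147 UMIs in 4, 14, 46 and 38 members, or 755, 587, 1223 and 460 CPM. The level at 3 dpi was 2.08 times that at 1 dpi (conditional binomial 95% interval 1.69 to 2.58), and that at 7 dpi 2.66-fold lower than at 3 dpi (2.18 to 3.25). In members of at most 1% the levels were 755, 488, 1542 and 582 CPM, and the same ratios 3.16 (2.46 to 4.10) and 2.65-fold lower (2.01 to 3.55). The highest single cells held 12 of 26, 33 of 123, 27 of 324 and 22 of 147 Il17a UMIs. Members held 620 of the 996 Il17a UMIs of the kept cells (62.2%), and by library 81.2, 61.8, 74.0 and 45.0%.

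Several other cytokines of the list of 20 read here were rare in the members, but Ltb was not. In members of at most 1% it had 92 UMIs at 1 dpi and 72 at 7 dpi, where Il17a had 79 and 61. At 3 dpi Il17a led the list with 303. Il17f had 0, 3, 7 and 2 UMIs in 7 members, and Il22 2 UMIs at 1 dpi and 27 in 1 cell at 7 dpi. Il4, Il5, Il10, Il13 and Il21 were at 0 in all 184, which allows a share of up to 1.63% of cells with a UMI. Areg, which encodes amphiregulin, a growth factor in tissue repair, had 17, 43, 55 and 7 UMIs, with all 17 of Uninjured muscle in 1 cell and 34 of those at 1 dpi in another. It was higher than in NK cells (4.91 ± 0.45, edgeR adjusted p = 1.02e-05) and alpha-beta T cells (1.77 ± 0.39, 0.0175), the latter in 3 of 4 libraries. Tnfsf11, the gene of RANKL, which drives osteoclast formation, had 4, 16, 7 and 12 UMIs and was higher than in NK cells (4.18 ± 0.65, edgeR adjusted p = 0.000943) and alpha-beta T cells (1.56 ± 0.38, 0.0309). Against alpha-beta T cells the call of Areg was lost without Uninjured muscle, 1 or 3 dpi (edgeR adjusted p = 0.0629, 0.0701 and 0.212) and with DESeq2 (1.70, adjusted p = 0.0725), and that of Tnfsf11 without 1 or 7 dpi (0.299 and 0.0916). Csf2, the gene of GM-CSF, had 21, 7, 2 and 11 UMIs, with all 21 of Uninjured muscle in 2 cells (12 and 9), and a difference from alpha-beta T cells of 3.45 ± 0.94 (edgeR adjusted p = 0.0599), which passed with DESeq2 (adjusted p = 0.0161). Of 20 genes on the list, 4 of the 7 tested were higher and 1 lower than in NK cells (median 1.25), 2 of 10 higher and 1 lower than in alpha-beta T cells (0.26), and 0 of 4 higher and 1 lower than in other Trdc T cells (0.36).

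Ifng was the gene of that list that was lower in each comparison. It encodes interferon gamma, the cytokine of the other main type of gamma-delta T cell. Its levels in members were 58.1, 105, 109 and 21.9 CPM, against 596, 407, 447 and 229 CPM in NK cells and 214, 288, 355 and 110 CPM in other Trdc T cells, and the ranges did not overlap, although the 7 dpi value of other Trdc T cells was just above the highest of the members. The log2 fold changes were -2.41 ± 0.30 against NK cells (edgeR adjusted p = 0.000111), -2.0 ± 0.30 against alpha-beta T cells (0.000728) and -1.82 ± 0.30 against other Trdc T cells (0.0106). Without 7 dpi the call against other Trdc T cells was lost (edgeR adjusted p = 0.0554). Members let in by Tcrg-C1 alone held all 22 of its UMIs at 1 dpi and 17 of 29 at 3 dpi. It was seen in 10.9% of members and in 53.1% of NK cells, 34.7% of alpha-beta T cells and 38.2% of other Trdc T cells.

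Genes of the interferon gamma and cytotoxic program were lower in members for most of those tested. Of 16 on the list, 12 of 15 were lower than in NK cells and 1 higher (median -3.17), 10 of 14 lower than in alpha-beta T cells (-1.76) and 8 of 12 lower than in other Trdc T cells (-2.23). Gzma, the granzyme A gene, had 14 UMIs in members, at 0, 0, 18.9 and 28.2 CPM against 1598, 273, 836 and 508 CPM in other Trdc T cells. Its log2 fold change was -5.37 ± 0.51 (edgeR adjusted p = 0.00143), and against NK cells -7.16 ± 0.40 (2.15e-07). Nkg7, a cytotoxic granule gene, was lower in all 3 comparisons (-3.17, -2.26 and -2.61), as was Klrd1, the CD94 gene (-3.31, -1.66 and -2.63). Cd27, which marks the interferon gamma type, was lower than in other Trdc T cells (-1.86, edgeR adjusted p = 0.0288) and alpha-beta T cells (-1.55, 0.0153), and its difference from NK cells was -1.10 (0.0688). The gene higher than in NK cells was Cd226, an activating receptor (1.00 ± 0.24, edgeR adjusted p = 0.0197), a call lost without 1, 3 or 7 dpi (0.149, 0.107 and 0.0898). For Cd27 the calls were lost against other Trdc T cells without Uninjured muscle or 7 dpi (edgeR adjusted p = 0.0546 and 0.0833) and against alpha-beta T cells without 3 or 7 dpi (0.0985 and 0.0604), while that against NK cells passed with DESeq2 (0.0381). The calls of Nkg7 against other Trdc T cells without Uninjured muscle (edgeR adjusted p = 0.0569) and of Klrd1 against alpha-beta T cells without 3 dpi (0.115) were also lost.

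Genes of homing and residence were found on both sides, and most of those tested passed in neither direction. Cxcr6, a chemokine receptor of tissue-resident lymphocytes at chr9:123806475-123811760, was seen in 70.1% of members, 23.9% of alpha-beta T cells, 9.55% of other Trdc T cells, 2.35% of NK cells and 0.194% of B cells. Its levels were 755, 439, 612 and 279 CPM in members and 34.8, 74.3, 133 and 78.5 CPM in alpha-beta T cells, with no overlap. The log2 fold changes were 6.07 ± 0.29 against NK cells (edgeR adjusted p = 9.3e-08), 2.47 ± 0.29 against alpha-beta T cells (0.000104) and 3.77 ± 0.52 against other Trdc T cells (0.00511). Itgae, the integrin chain CD103, was also higher in all 3 (5.55, 1.88 and 3.17), with 58.1, 52.5, 90.6 and 59.5 CPM in members. Its call was lost against alpha-beta T cells without 3 dpi (edgeR adjusted p = 0.221) and against other Trdc T cells without Uninjured muscle (0.0546).

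Ccr7, the lymph node homing receptor, was lower than in alpha-beta T cells (-2.45 ± 0.36, edgeR adjusted p = 0.00071). Ccr2, the receptor for monocyte chemoattractants, stood at 377, 368, 415 and 179 CPM and was higher than in alpha-beta T cells (1.51 ± 0.26, edgeR adjusted p = 0.00272), with differences of 0.48 from NK cells (0.336) and 1.29 from other Trdc T cells (0.0751). The latter passed with cells of at most 1% stromal UMIs (edgeR adjusted p = 0.00408). Ccr6, often used to mark the type, had 20 UMIs in 18 members (9.78%). Of 18 genes on the list, 4 of 13 tested were higher and 1 lower than in NK cells, 3 of 14 higher and 3 lower than in alpha-beta T cells, and 3 of 11 higher and 1 lower than in other Trdc T cells (medians 0.31, -0.51 and 0.69).

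Of the 8 inhibitory receptor genes at most 2 could be tested in a comparison. Pdcd1, the PD-1 gene at chr1:94038305-94052553, was seen in 40.8% of members, at 116, 277, 321 and 81.4 CPM. Alpha-beta T cells stood at 6.76, 37.2, 34.4 and 19.9 CPM and other Trdc T cells at 0, 38.9, 2.81 and 4.58 CPM, all below the members. The differences were 2.82 ± 0.27 (edgeR adjusted p = 2.49e-05) and 4.34 ± 0.57 (0.00511), and 7.23 ± 0.46 against NK cells (3.84e-07). Ctla4 had 6 UMIs in members and was lower than in alpha-beta T cells (-4.06 ± 0.43, edgeR adjusted p = 5.23e-05). Lag3 had 1 UMI, and Havcr2 and Tigit had none.

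**Figure D4:**
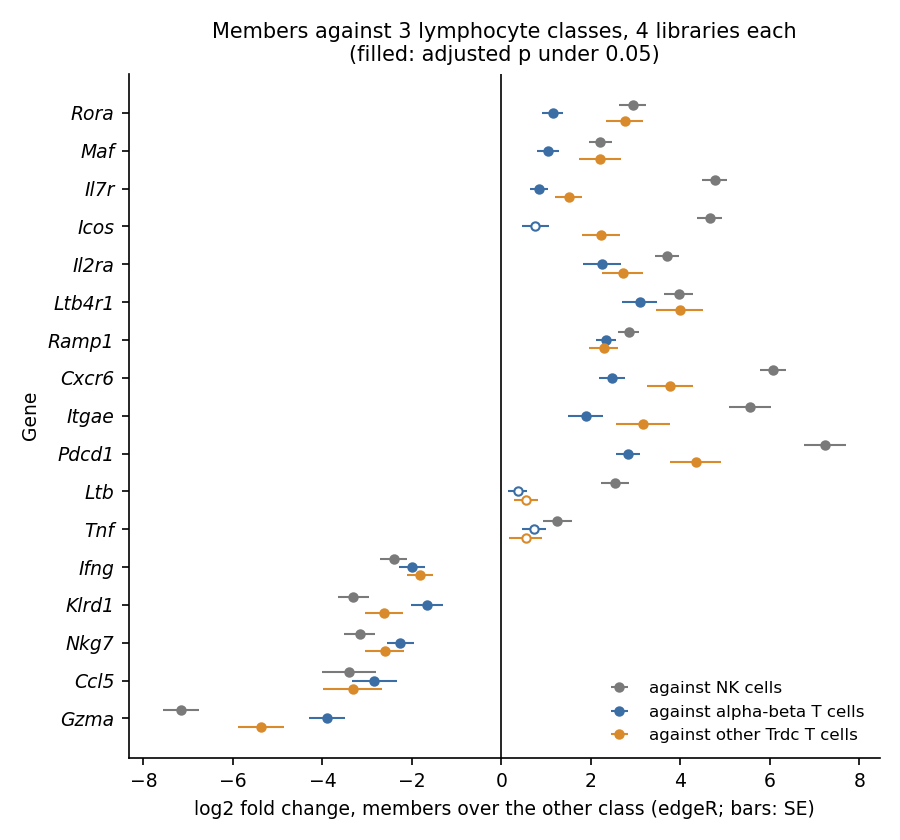
Log2 fold change (± SE) of 17 genes in members against NK cells, alpha-beta T cells and other Trdc T cells, with filled points for an adjusted p under 0.05. Cxcr6 (6.07, 2.47 and 3.77) and Pdcd1 (7.23, 2.82 and 4.34) lie to the right in all 3, and Ifng (-2.41, -2.0 and -1.82) and Gzma to the left.

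Outside these lists, the genes with the largest differences were ranked in each comparison among those with the same direction in every library. Actn2, which encodes the actin cross-linker alpha-actinin 2, known best from the Z-disc of muscle, had 348, 239, 238 and 194 CPM in members, with 187 UMIs in all. It was 7.51 ± 0.46 higher than in NK cells (edgeR adjusted p = 2.93e-07) and 4.08 ± 0.32 higher than in alpha-beta T cells (3.46e-06). Other Trdc T cells held 3 UMIs, a ratio of 56.7 (19.1 to 278). The muscle marker list stood at 0, 0, 0 and 8 UMIs in the same members. Cryba4, a crystallin gene, was also far above NK cells (7.00 ± 0.42, edgeR adjusted p = 2.93e-07) and alpha-beta T cells (6.51 ± 0.60, 2.03e-05).

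Against NK cells the 8 highest genes also included Aqp3, a water and glycerol channel gene, with 51 UMIs against 1 (ratio 670, 115 to 26991), and Ly6g5b, with 59 against 3 (259, 84.2 to 1289). Tcrg-C2, with 88 UMIs against 1, is a near copy of Tcrg-C1, and its count is uncertain. The 8 lowest included NK receptor and granule genes, Klra3 with 1 UMI against 863 (65.7-fold lower, 11.8 to 2596), Klra9 with 3 against 1434 (36.4-fold, 12.4 to 177), Prf1, the perforin gene (-5.0 ± 0.36, edgeR adjusted p = 1.44e-06), Itgax with 2 against 910, and Car2, a carbonic anhydrase gene, with 2 against 1598. Khdc1a, with 0 against 288 UMIs, was at least 7.30-fold lower, a call lost without 3 dpi (edgeR adjusted p = 0.0622).

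Against alpha-beta T cells, the 8 highest also held Clnk, an adaptor of immune receptor signalling, with 25 UMIs against 2 (94.6, 23.6 to 824), and Mmp25, a membrane-bound matrix protease gene (4.24 ± 0.37, edgeR adjusted p = 1.13e-05). The 8 lowest were Trat1, A430093F15Rik, Dapl1, Ctla4, Cd6, Tdrp, Frat2 and Slamf6. The call of Tdrp was lost without 1 dpi (edgeR adjusted p = 0.0876) or with no library block (0.0541), and that of Frat2 without 3 dpi (0.0725). Trat1, an adaptor bound to the T cell receptor complex, had 0 against 267 UMIs, at least 11.8-fold lower, Cd6, a T cell surface receptor, differed by -3.81 ± 0.37 (edgeR adjusted p = 2.66e-05), and Slamf6 by -3.34 ± 0.55 (0.00171). Dapl1 had 3 UMIs against 620 (27.3-fold lower, 9.30 to 133).

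Against other Trdc T cells, which differ from members by the rule's 4 genes alone, the 8 highest also held Smox, the spermine oxidase gene (3.91 ± 0.52, edgeR adjusted p = 0.00511), Bcl2a1d, of a survival gene family with near copies that can share reads (3.67 ± 0.57, 0.00842), and Ero1l, a gene of protein folding in the endoplasmic reticulum (3.28 ± 0.42, 0.00511). The lowest included Xcl1, a chemokine gene of NK and cytotoxic cells (-3.57 ± 0.46, edgeR adjusted p = 0.00511), Pglyrp1 (-3.62 ± 0.51, 0.00553), Prf1 (-2.97 ± 0.45, 0.00842), Sh2d1a, a signalling adaptor (-3.10 ± 0.47, 0.00842), and Itga4, an integrin chain of circulating lymphocytes (-2.85 ± 0.40, 0.00511). Ccl5 differed by -3.32 ± 0.66 (edgeR adjusted p = 0.0251), with 87.1, 1031, 706 and 84.6 CPM in members against 8964, 3099, 3073 and 1862 CPM. Members let in by Tcrg-C1 alone held all 216 of its UMIs at 1 dpi and 116 of 187 at 3 dpi, and the difference was larger and past the threshold without Tcrg-C1 in the rule. The call of Ccl5 was lost without Uninjured muscle or 7 dpi (edgeR adjusted p = 0.0577 and 0.0701) and that of Smox without 3 dpi (0.0515).

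Detection of other genes among members with and without Il17a is given as a description, since Il17a is a gene of the rule and the 184 cells share libraries and depth. Of 102 members with Il17a, 87 (85.3%) held Rora and 29 (28.4%) Il23r, against 46 (56.1%) and 9 (11%) of the 82 without. The rule puts all 22 members let in by Tcrg-C1 alone among those without Il17a. Of the other 60 without Il17a, 40 (66.7%) held Rora and 9 (15.0%) Il23r. Over 4697 genes, detection was most like that of Il17a for Rora (phi coefficient 0.32), Gadd45b, a stress and NF-kappaB response gene (0.32), and Tns4, an adhesion adaptor gene (0.28, with 32 of its 39 members also holding Il17a).

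Il17a, Cd163l1, Trdc, Il7r and Rora were lower over all members at 7 dpi than at 3 dpi, and for each but Il17a the ratio was nearer to 1 or turned without the members above 1% stromal UMIs. For Il7r the level at 7 dpi was 4.60-fold lower than at 3 dpi (3.56 to 6.00) over all members and 2.38-fold lower (1.81 to 3.18) in those at most 1%. Il7r was also lower at 7 dpi in alpha-beta T cells of at most 1%, with 133 UMIs in 199 cells against 709 in 410 at 3 dpi. Whether the classes differed in this was not tested. For Rora the values were 4.06-fold (3.07 to 5.44) and 2.72-fold lower (1.94 to 3.90), and for Cd163l1 2.39-fold (1.91 to 3.01) and 1.39-fold lower (1.08 to 1.81). Il17a, Cd163l1 and Trdc are genes of the rule, so that their ratios only describe the members. The routes into the rule also differed by library. Il17a alone let in 0, 0, 0 and 8 members, and Tcrg-C1 alone 1, 10, 7 and 4. Trdc turned direction. Its ratio of 7 to 3 dpi was 0.780 (0.658 to 0.925) over all members and 1.34 (1.11 to 1.62) in those at most 1%, whose levels were 2003, 1118, 1359 and 1821 CPM.

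**Figure D5:**
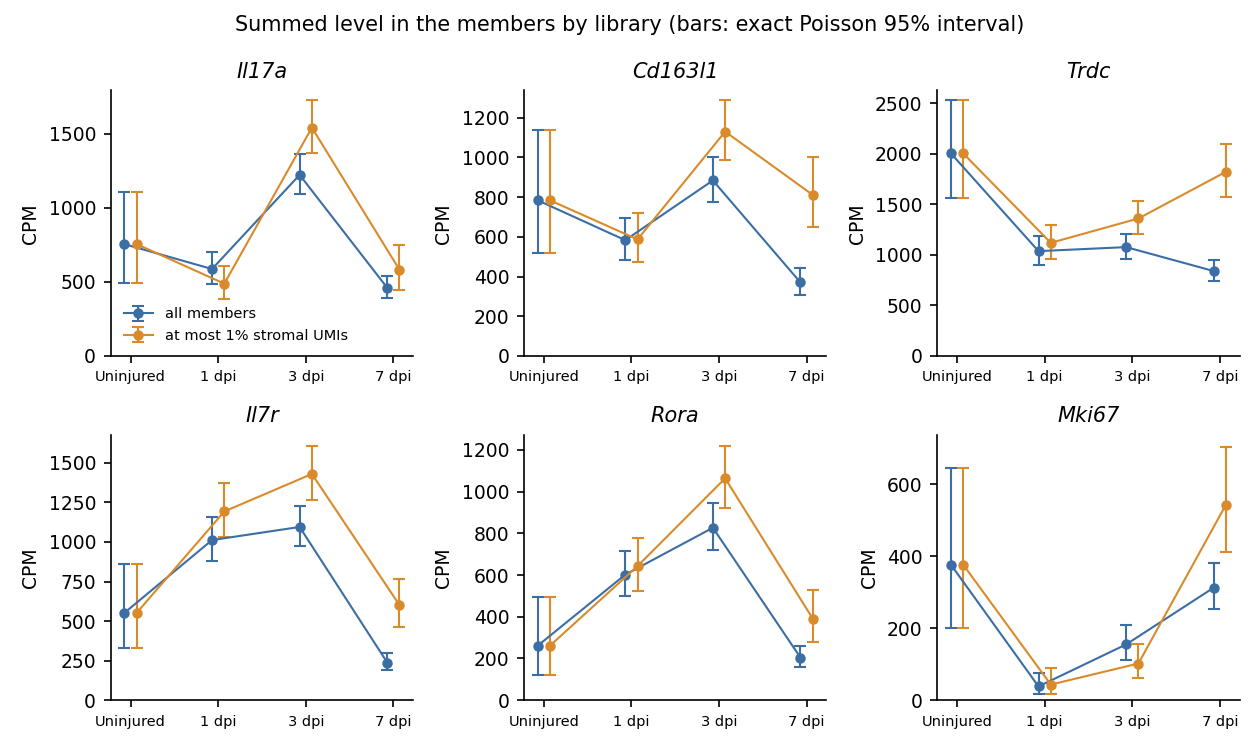
CPM of Il17a, Cd163l1, Trdc, Il7r, Rora and Mki67 in each library, with exact Poisson 95% intervals, over all members and over those with at most 1% stromal UMIs. Il17a is highest at 3 dpi in both (1223 and 1542 CPM), and at 7 dpi Trdc is at 839 CPM over all members and 1821 CPM in those at most 1%.

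The genes with the largest ratios between successive libraries were of several kinds. Between Uninjured muscle, with 9 members, and 1 dpi, the highest ratios were those of Eprs (3.39, 1.41 to 10.7), Gm42418 (3.09, 2.86 to 3.34) and the transcription factor gene Klf4 (3.02, 1.55 to 6.71). Gm42418, which overlaps ribosomal RNA, was also higher at 1 dpi in NK cells (11585 to 47528 CPM) and alpha-beta T cells (14404 to 58548 CPM), so that it moved with the library. Lower at 1 dpi were Cxcl10, an interferon-induced chemokine gene (4.46-fold, 2.76 to 7.14), and Lgals1, the galectin 1 gene (3.53-fold, 2.86 to 4.35). The 33 Cxcl10 UMIs of Uninjured muscle lay in 3 of 9 members, with 16 in the highest cell and 12 in the next. Lgals1 was also lower at 1 dpi in NK cells (2616 to 1379 CPM) and stood at 1008 and 934 CPM in alpha-beta T cells, while Cxcl10 stood at 192 and 231 CPM in NK cells and 369 and 307 CPM in alpha-beta T cells.

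From 1 to 3 dpi the 5 genes with the highest ratios included 3 of dividing cells, Top2a (6.59, 2.82 to 18.8), Stmn1 (5.54, 2.93 to 11.5) and Mki67 (4.05, 1.88 to 10.0). In members of at most 1% the ratios were 5.63 (2.38 to 16.2) for Top2a, 3.97 (2.05 to 8.42) for Stmn1 and 2.35 (0.956 to 6.59) for Mki67. Without Tcrg-C1 in the rule the Mki67 ratio was 1.16 (0.426 to 3.33). A few members at the edge of the rule carried these values at 3 dpi, where 3 cells let in by Tcrg-C1 alone held 30 of the 41 UMIs of Mki67 and 34 of the 50 of Top2a, and 4 such cells 61 of the 77 of Stmn1. All 3 were also higher at 3 dpi in the other lymphocytes of these libraries, with Top2a at 81.5 to 290 CPM in NK cells and 68.5 to 193 CPM in alpha-beta T cells, Stmn1 at 132 to 435 and 116 to 295 CPM, and Mki67 at 101 to 338 and 74.3 to 262 CPM. Lower at 3 dpi were Pi16, a fibroblast gene (18.8-fold, 8.29 to 52.5), which had 2 and 1 UMIs left in members of at most 1%, and Bcl2, a survival gene (4.40-fold, 2.68 to 7.52, and 4.67-fold in those members). Bcl2 was also lower at 3 dpi in NK cells (345 to 191 CPM) and alpha-beta T cells (250 to 201 CPM).

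From 3 to 7 dpi, Cdkn1c, a cell cycle inhibitor gene (17.8, 7.37 to 55.8), Angptl1 and Wipi1 had the highest ratios over all members, but in members of at most 1% Cdkn1c was at 0.937 and the other two had 0 UMIs at 7 dpi. The remaining genes of the 5 highest were higher in both sets, Sdhb, of mitochondrial respiration, by 5.81 (2.46 to 16.7) and 7.50 (2.42 to 30.8), and Pabpn1, a poly(A) binding protein gene, by 5.29 (2.49 to 12.9) and 4.06 (1.44 to 13.0). At 3 dpi Sdhb had 6 and Pabpn1 8 UMIs over all members. Both were also higher at 7 dpi in NK cells (Sdhb 91.2 to 119 CPM, Pabpn1 84.4 to 155 CPM) and alpha-beta T cells (79.1 to 125 and 76.9 to 115 CPM). In B cells Sdhb stood at 81.2 and 82.4 CPM, and Pabpn1 went from 75.8 to 112 CPM. Ranked within members of at most 1%, the highest ratios were those of Cxcl10 (9.46, 5.88 to 15.9), the histone gene Hist1h2ae (6.83, 3.72 to 13.4) and Mki67 (5.34, 3.16 to 9.38). Their UMIs at 7 dpi lay in few of the 33 members, 106 of Cxcl10 in 9 cells, 51 of Hist1h2ae in 4 and 57 of Mki67 in 5, with 29 of the Mki67 UMIs in 1 cell. Of the 5 genes lowest at 7 dpi, 4 were lower in both sets. Cxcr4, the receptor for CXCL12, was 14.5-fold lower (6.72 to 37.1) and 8.43-fold lower in members of at most 1%, Satb1, a chromatin organiser gene of T cells, 9.64-fold and 6.23-fold, Mmp25 9.13-fold and 4.27-fold, and Tgif1 8.44-fold and 6.94-fold. All 4 were also lower at 7 dpi in other lymphocytes. Cxcr4 went from 191 to 60.4 CPM in NK cells, 351 to 107 in alpha-beta T cells and 545 to 281 in B cells, Satb1 from 207 to 91.6, 257 to 180 and 234 to 200 CPM, and Tgif1 from 97.0 to 41.8, 129 to 68.6 and 160 to 110 CPM. Mmp25, rare outside the members, went from 3.43 to 0.702, 7.09 to 2.98 and 7.21 to 0 CPM. Whether the ratios differed between the classes was not tested. Il33, an alarmin gene of stromal cells, was 8.68-fold lower over all members and had 0 UMIs in those at most 1%.

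Cycling genes were read per cell as well as per library. Their summed level in members was 2816, 1022, 2273 and 3451 CPM. Single cells carried much of it, with 79 of 97 UMIs in 1 cell of Uninjured muscle, 73 of 214 in 1 cell at 1 dpi, and 300 of 602 at 3 dpi in 3 cells let in by Tcrg-C1 alone. By cell, those with at least 5 cycling UMIs were 2 of 9, 12 of 32, 14 of 73 and 27 of 70. At 7 dpi these were 21 of the 37 members above 1% (56.8%) and 6 of the other 33 (18.2%), and 1 of those 33 held 235 of their 601 cycling UMIs. The shares in members of at most 1% were 22.2, 34.5, 16.7 and 18.2%, against 25.0, 43.6, 42 and 16% in NK cells and 20.5, 41.7, 32.4 and 16.1% in alpha-beta T cells under the same limit. None of 19 cycling genes passed the test against NK or alpha-beta T cells, and none of 9 against other Trdc T cells.

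Immediate early genes, which cells switch on within minutes of a stimulus or of tissue dissociation, were higher for 6 of 17 genes and lower for 1 against NK cells, higher for 3 of 17 against alpha-beta T cells and for 1 of 17 against other Trdc T cells (medians 0.49, 0.55 and 0.48). Without cells above 1% stromal UMIs the counts were 8 higher and 1 lower, 8 higher and 0 lower, and 7 higher and 1 lower, of 16 tested. Over all genes 8.00, 5.21 and 7.35% were higher and 5.86, 4.09 and 6.75% lower under that limit. Dusp1, a phosphatase gene of this kind, was higher in all 3 (0.94, 1.02 and 1.30, edgeR adjusted p = 0.0016, 0.00275 and 0.0223). Of the glycolysis genes 1 of 11 was higher, Hk2, against NK and against alpha-beta T cells, and none of 9 against other Trdc T cells. Of the lipid genes the one higher was Acsbg1, an acyl-CoA synthetase gene (4.48 ± 0.48 against NK cells, edgeR adjusted p = 3.57e-05, and 1.85 against alpha-beta T cells, 0.00275). With 3 libraries left several of these calls were lost while the direction stayed. For Dusp1 the difference was 0.84 from alpha-beta T cells without 1 dpi (edgeR adjusted p = 0.137) and 1.24 from other Trdc T cells without Uninjured muscle (0.0997). For Hk2 it was 0.90 and 0.98 from NK cells without 1 or 3 dpi (edgeR adjusted p = 0.288 and 0.394), and 0.82 and 1.06 from alpha-beta T cells (0.495 and 0.243). With DESeq2 on all 4 libraries its difference from alpha-beta T cells was 1.16 (adjusted p = 0.0922). For Acsbg1 it was 1.61 from alpha-beta T cells without 3 dpi (edgeR adjusted p = 0.143).

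The ligands that feed this cell type were measured over all cells of each library. Il1b stood at 99.4, 407, 195 and 55.6 CPM, highest at 1 dpi, and Il1rn, which encodes the IL-1 receptor antagonist, at 1.41, 46.9, 5.91 and 1.95 CPM. Il23a, which encodes the subunit particular to IL-23, had 50, 151, 91 and 47 UMIs, and Il12b, which encodes its partner, 3, 1, 105 and 25. In mesenchymal cells, genes known to answer IL-17A had no common course. Cxcl5 was at 22.2, 263, 267 and 17 CPM and Lcn2 at 21.6, 117, 48.7 and 6.99 CPM, both highest after injury and lowest at 7 dpi, while Cxcl1 was at 1203, 671, 837 and 437 CPM, highest in Uninjured muscle. Il17ra, the receptor chain, stood at 26.9, 48.6, 48.7 and 16.2 CPM in the same cells. Other signals also act on these genes, and their relation to the members was not tested. Within the members, 1 of 8 tested genes of this response list was higher than in NK cells and 1 of 9 higher than in alpha-beta T cells (Zc3h12a in both), and of 3 tested ligand genes Il1b was lower in both.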

How the data were processed

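The authors made each library with the 10x Genomics droplet method and deposited UMI counts per gene and barcode as 1 matrix a library. The submitters' processing notes name Cell Ranger 5.0.0, Seurat 3.1.1 and the mm10 build. The deposited counts were used as they are, without integration and without a doublet caller. Of 62665 barcodes, 59824 had at most 10% mitochondrial UMIs and were kept. Members and classes were gated on raw UMIs, not clustered.

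The members and gene lists were chosen with earlier results of these data known. UMIs were summed per library and class and tested with edgeR 4.0.16 (R 4.3.3, TMM scaling, quasi-likelihood test, library as block, Benjamini-Hochberg adjustment over all genes tested), with DESeq2 1.42.0 as an alternative. SE was the log2 fold change over the square root of F. On simulated counts, 117, 143 and 145 genes with a 4-fold change passed the filter on low counts against NK, alpha-beta and other Trdc T cells. Of these, 81.2, 83.9 and 89.0% were called. Changed genes that the filter removed are not in these shares, and the simulation held no difference between libraries. CPM intervals are exact Poisson, shares exact binomial and ratios conditional binomial, at 95% and for counting error only, since each time point had 1 library. A count of 0 was given a floor of 3 UMIs over the group.

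Named genes were up to 5 examples of each list, and the 8 genes per direction with the largest fold change among those past an adjusted p of 0.05 with at least 20 UMIs in the higher class and 1 direction in every library. Between successive libraries they were the 5 genes per direction with the largest CPM ratio, at least 30 UMIs in the higher and 5 in the lower library, and a CPM in members at least that of the other cells. Gate, mitochondrial, ribosomal protein, immunoglobulin and marker genes were left out. The 3 genes most like Il17a had the highest phi coefficient among those in at least 20 members. A few values outside the rule, such as those of cell subsets, were chosen after they were seen. The limit of 1% stromal UMIs was added after seeing the data. Positions follow the GENCODE annotation of mm10, and promoter sequences the RefSeq table for GRCm38.p6. Python 3.11.15 was used for gates and intervals (scipy 1.17.1) and for figures (matplotlib 3.10.9). Some genes of the lists enter the counts but are not reported here by name.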

Additional observations from a re-analysis of the deposited data

How the results depend on the processing

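Between time points no paired analysis was possible because each was 1 library. The comparisons of classes were paired within a library through the block. Of the tests of named genes under the alternatives, 1061 stayed on their side of the threshold, 94 no longer passed, 15 newly passed and 2 turned direction. Calls were lost with no library block (28), without Uninjured muscle (9), 1 dpi (14), 3 dpi (19) or 7 dpi (9), with DESeq2 (4), with no filter on low counts (2), without Tcrg-C1 in the rule (1) and under the marker limit of 3 UMIs given below (8). The fold changes of Dusp1 turned under that limit (-0.91 against NK cells, -0.37 against alpha-beta T cells). Scaling without TMM lost no call.

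Counts of genes past the threshold (254 higher and 150 lower against NK cells, 149 and 116 against alpha-beta T cells, 42 and 41 against other Trdc T cells) depended on the settings. With no filter on low counts they were 388 and 383 against NK cells, 360 lower against alpha-beta T cells, and 149 and 106 against other Trdc T cells. With no library block they were 140 and 85, 71 and 41, and 21 and 14. With cells of at most 1% stromal UMIs in both classes, an alternative chosen after seeing the data, they were 236 lower against NK cells, 250 and 196, and 122 and 112. Without cells holding 3 or more UMIs of other cells' markers, which left 0, 2, 14 and 2 members and so says little, they were 4 and 23, 2 and 2, and 1 and 1. Leaving out 1 library gave 106 to 328 higher and 70 to 198 lower against NK cells, 74 to 179 and 72 to 167 against alpha-beta T cells, and 23 to 65 and 13 to 48 against other Trdc T cells. Without 3 dpi the counts were 106 and 70, 80 and 72, and 24 higher. Without 1 dpi they were 166 higher, 74 and 74, and 65 higher, without Uninjured 23 and 25 against other Trdc T cells, and without 7 dpi 27 and 13.

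Shares of CD3-positive cells moved outside their intervals under the marker limit of 3 UMIs (0, 0.212, 0.95 and 0.0961%), with 0 UMIs of Trac, Trbc1 and Trbc2 (0.190, 0.318, 1.15 and 1.34%), with cells thinned to 1000 UMIs (1.94% at 1 dpi, 2.42% at 7 dpi) and with at least 2 UMIs of Trdc (3.87% at 3 dpi, 2.11% at 7 dpi). The other 40 shares stayed inside.

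For the log2 ratio of Il17a between 3 and 1 dpi (1.06) the values were 1.66 in members of at most 1% and 1.57 as a mean over cells. The cycling ratio between 3 and 1 dpi became 0.38 without Tcrg-C1 in the rule, 0.10 under the marker limit and 0.71 as a mean over cells, and that between 7 and 3 dpi 1.32 in members of at most 1%, 1.03 without Tcrg-C1 and 0.32 under the marker limit. Ratios whose interval excluded 1 and that turned direction were those between 7 and 3 dpi of Trdc (0.42 in members of at most 1%, 0.21 under the marker limit), Tmem176b (0.67 in members of at most 1%), and, under the marker limit, Maf (0.98), Cd44 (1.01), the cytotoxic list (0.96) and the glycolysis list (-0.22). Without Tcrg-C1 the cytotoxic list turned between 1 dpi and Uninjured (-0.22) and between 3 and 1 dpi (1.18). The immediate early list turned between 3 and 1 dpi under the marker limit (0.92), and the mesenchymal list between 1 dpi and Uninjured in members of at most 1% (-0.65). Ratios whose interval spanned 1 also changed sign between 7 and 3 dpi, among them Trdv4 (-0.10, and 0.91 in members of at most 1%) and Il1r1 (-0.52 and 0.48). The cause was not tested. Depth limits all values of Uninjured muscle, where 9 members held 34447 UMIs.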

Other observations

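Il17a was also seen outside the members. Of 292 deposited barcodes with an Il17a UMI, 190 were not members, by library 3, 24, 51 and 112. Of these, 95 held no CD3 gene, 89 held CD3 UMIs but no Trdc, 6 were over the mitochondrial limit, and 119 held exactly 1 Il17a UMI. Cd4 was present in 13 of them. Among gated classes, Il17a had UMIs in 1.07% of alpha-beta T cells, 0.343% of NK cells and 0.0971% of B cells.

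The members held 501 of the 657 UMIs of Cd163l1 (76.3%) and 369 of the 2241 of Cxcr6 (16.5%), but 122 of the 3370 of Areg (3.62%), 41 of the 1586 of Csf2 (2.59%) and 12 of the 74 of Il17f (16.2%). Of 148 UMIs of Il22, 29 were in members, 27 of them in 1 cell at 7 dpi.

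At 3 dpi, 163 UMIs of keratinocyte genes were in 2 members, 83 of them of Krt14.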
